A study of Homo sapiens with 4 samples.

Results

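Prostaglandins are lipid mediators made from arachidonic acid, and 10 genes of their synthesis, breakdown and reception were followed across 4 cultures of IMR90, a human lung fibroblast line. The genes were PLA2G4A, PTGS1, PTGS2, PTGES, PTGIS, PTGDS, HPGD, PTGER2, PTGER4 and PTGFR, chosen by symbol from the 22679 named genes of the deposited tables. Each of the 10 had 1 locus of its own, not joined with another gene. There was 1 poly(A) RNA-seq library for each of 4 groups of retrovirally infected cells, all at passage 16. Growing cells carried the empty pBabe vector and were taken at day 13. Cells in oncogene-induced senescence (OIS) carried H-RasV12 as a tamoxifen-inducible ER:RasV12 fusion and had 10 nM tamoxifen for 8 days. The other cultures expressed H3.3cs1, a Flag-tagged, cleaved version of histone H3.3. They were taken 3 days (H3.3cs1 early) and 13 days (H3.3cs1 late) after infection, and their labels call each time point H3.3cs1-induced senescence. The control vector was not analysed at day 3, so H3.3cs1 and time since infection cannot be told apart in H3.3cs1 early, and OIS cells had another vector, tamoxifen and another culture time besides active RAS. With 1 library per group the spread between replicates is unknown, and no difference below was tested.

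Cytosolic phospholipase A2 releases arachidonic acid from membrane lipids, a cyclooxygenase turns it into prostaglandin H2, and terminal synthases convert that intermediate into prostaglandin E2, D2, prostacyclin and others. The products leave the cell and act on G protein-coupled receptors of the same or neighbouring cells until 15-hydroxyprostaglandin dehydrogenase, the product of HPGD, inactivates them. Fibroblasts are known makers of prostaglandin E2, and its EP2 and EP4 receptors raise cyclic AMP. Of the cyclooxygenases, PTGS1 encodes COX-1, usually described as constitutive, and PTGS2 encodes COX-2, usually described as inducible.

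Levels are given as FPKM, the fragments of a gene divided by its transcript length in kilobases and by the size of the library, so they can be set side by side between genes. Differences between libraries are of log2(FPKM + 1), and folds are taken from them, so the change of a low value comes out smaller than its plain ratio. The words rose and fell are kept for differences of 2-fold or more, which is 1 on the log2 scale. Comparisons covered the 12183 named genes with at least 1 FPKM in at least 1 library. HRAS was at 3153 FPKM in OIS and between 41.9 and 49.8 FPKM in the other libraries, as the labels say. It marks the OIS library alone and cannot tell the others apart, so their names rest on the sample records. All 10 fibroblast markers were above 1 FPKM in every library, but their summed level was 13006 FPKM in growing cells, 7262 in OIS cells, 8454 at H3.3cs1 day 3 and 13937 at day 13. Those lower in OIS included COL1A1, a collagen I chain, at 1012 FPKM against 4156, and DCN, the proteoglycan decorin, at 70.5 against 391. The fall was not shared by the whole list. VIM was at 2858 FPKM in OIS against 3281, and FN1 (2307 against 2215) and S100A4 (7.47 against 6.75) were slightly higher in OIS, while the rest were lower. The part of this list in the differences below was not tested. Of 8 leukocyte markers, CD68, on a locus joined with MPDU1, was the one above 1 FPKM, with PTPRC at 0.0396 FPKM or less.

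The promoters below are of the genes with the furthest rises, PTGS2 and PTGES, and of PTGER2, which fell in OIS and in H3.3cs1 late. Sequences are the 250 bases before the annotated start, 5′ to 3′ on the strand of the gene, from RefSeq on GRCh38.p14, which held 9 of the 10 genes (11 starts). Capitals mark matches on either strand to TATAAA (the TATA box), the NF-kappaB letters (GGG and CC with any 5 bases between), TGACGTCA (the cyclic AMP response element), CGTCA (its core), TTNNGNAA (C/EBP) and TGANTCA (AP-1). The windows are chr1:186680424-186680673 (minus strand) for PTGS2, chr9:129753043-129753292 (minus strand) for PTGES and chr14:52314062-52314311 (plus strand) for PTGER2.
PTGS2: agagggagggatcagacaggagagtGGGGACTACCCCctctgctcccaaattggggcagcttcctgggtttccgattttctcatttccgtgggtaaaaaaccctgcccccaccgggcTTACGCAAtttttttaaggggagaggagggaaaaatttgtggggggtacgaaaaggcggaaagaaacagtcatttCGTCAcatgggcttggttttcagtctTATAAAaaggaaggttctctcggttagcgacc
PTGES: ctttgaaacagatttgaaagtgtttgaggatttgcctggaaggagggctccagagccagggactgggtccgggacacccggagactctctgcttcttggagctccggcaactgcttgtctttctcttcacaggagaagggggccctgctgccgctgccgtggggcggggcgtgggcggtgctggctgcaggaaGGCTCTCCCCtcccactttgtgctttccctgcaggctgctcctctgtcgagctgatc
PTGER2: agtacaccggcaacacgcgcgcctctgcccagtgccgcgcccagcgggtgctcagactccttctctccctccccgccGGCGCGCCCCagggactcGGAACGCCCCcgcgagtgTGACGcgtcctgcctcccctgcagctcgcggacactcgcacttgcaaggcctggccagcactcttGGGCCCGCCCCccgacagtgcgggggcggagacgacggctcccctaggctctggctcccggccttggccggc

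The PTGS2 window held matches to 4 of the 6 motifs. Overlapping NF-kappaB matches on both strands lay 225 to 214 bases before the start. The C/EBP match, which reads on both strands, lay 133 to 126 bases, CGTCA 58 to 54 bases and TATAAA 32 to 27 bases before it. An E-box match (CANNTG), not in capitals, shared bases with CGTCA. In the PTGES window the letters held 1 NF-kappaB match, on the reverse strand 57 to 48 bases before the start. PTGER2 had NF-kappaB matches at 3 places and a reverse-strand CGTCA 137 to 133 bases before the start. The PLA2G4A window had a match to none of the 6 motifs. Neither TGACGTCA nor TGANTCA was found in any of the 11 windows. Across all 35116 promoter windows of that length, TATAAA was present in 10.7%, the NF-kappaB letters in 54.4%, TGACGTCA in 1.65%, CGTCA in 21.2%, TTNNGNAA in 33.2%, TGANTCA in 6.57% and CANNTG in 61.8%. The NF-kappaB letters were in 8 of the 11 windows of the set. A match of these letters is therefore a common feature, and a match is a description of the sequence, not a measured binding site.

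**Figure D1:**
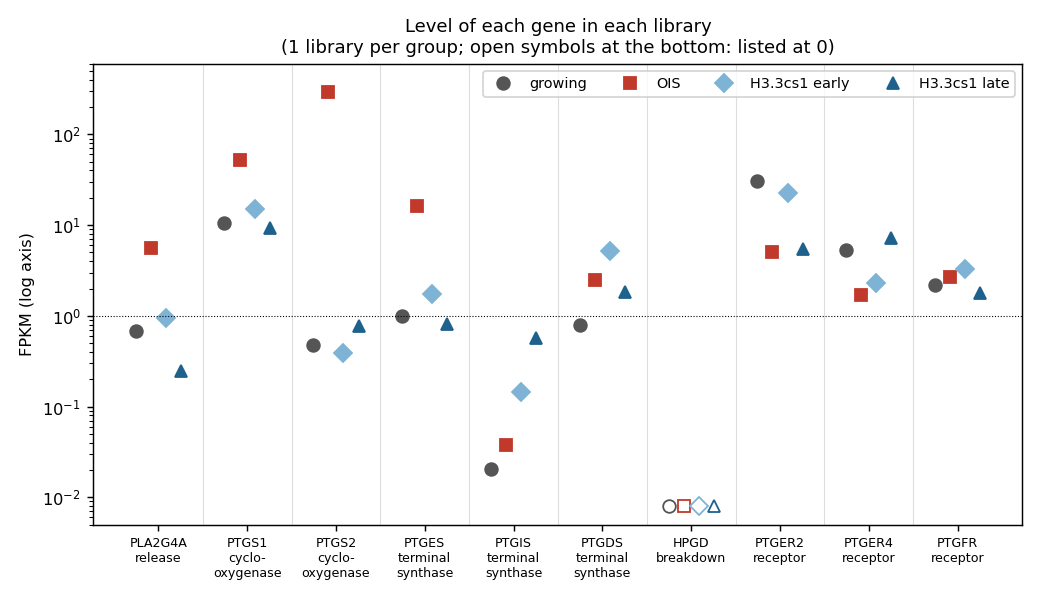
FPKM (log axis) of the 10 genes in the growing, OIS, H3.3cs1 early and H3.3cs1 late libraries, 1 point per library, in order of their role, with the dotted line at 1 FPKM. PTGS2 stands at 292 FPKM in OIS and below 1 FPKM in the other libraries, and HPGD is listed at 0 in all 4 (open symbols).

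In OIS, the genes of the set that lead from membrane lipid to prostaglandin E2 were higher than in growing at each of 3 steps. Both prostaglandin E2 receptor genes of the set were lower. PTGS2, PTGES, PTGS1 and PLA2G4A rose, and PTGER2 and PTGER4 fell. Outside the set, the other prostaglandin E synthase genes, PTGES2 and PTGES3, did not reach 2-fold in OIS. Of 13 other arachidonate release genes compared, 2 rose and 1 fell. Among all genes compared, 9.13% rose and 8.17% fell in OIS. The 8 genes compared had 4 rises and 2 falls. PTGS2 and PLA2G4A reached 1 FPKM in OIS alone, so they entered the comparison through the library where they were high, and the count is a description. PTGIS and HPGD did not reach 1 FPKM in any library.

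PLA2G4A, the gene of cytosolic phospholipase A2, was at 0.680 FPKM in growing cells, 5.62 in OIS cells, 0.938 at H3.3cs1 day 3 and 0.248 at day 13. OIS was the one library above 1 FPKM and H3.3cs1 late was the lowest. Its rise in OIS was 3.94-fold. In H3.3cs1 late the log2 difference from growing was -0.43, short of 2-fold between values below 1 FPKM, and with a pseudocount of 0.1 FPKM it was -1.17.

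PTGS2, the inducible cyclooxygenase, was at 0.483 FPKM in growing cells, 292 in OIS cells, 0.394 at H3.3cs1 day 3 and 0.766 at day 13. The OIS level lay above that of 97.7% of the genes at 1 FPKM or more in that library, and all other libraries were below 1 FPKM. On the log2(FPKM + 1) scale PTGS2 rose 198-fold, a difference of 7.63 and rank 10 among the rises of the 12183 genes. The log2 differences from growing were -0.09 at H3.3cs1 day 3 and 0.25 at day 13.

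PTGS1, the other cyclooxygenase, was at 10.4 FPKM in growing cells, 52.7 in OIS cells, 15.1 at H3.3cs1 day 3 and 9.24 at day 13. It was thus expressed in every library, near the middle of the genes at 1 FPKM or more in growing, where 49.9% were lower. Its rise in OIS was 4.69-fold, and its log2 differences in H3.3cs1 early (0.49) and late (-0.16) did not reach 2-fold.

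Together, the cyclooxygenase genes had a different make-up in OIS than in the other libraries. PTGS2 gave 4.42% of the summed FPKM of both genes in growing cells, 84.7% in OIS cells, 2.55% at H3.3cs1 day 3 and 7.65% at day 13. The sum itself was 10.9 FPKM in growing cells, 345 in OIS cells, 15.5 at H3.3cs1 day 3 and 10.0 at day 13. PTGS1 was the higher of both genes in every library but OIS, by 21.6 times in growing, and PTGS2 was 5.55 times higher in OIS.

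**Figure D2:**
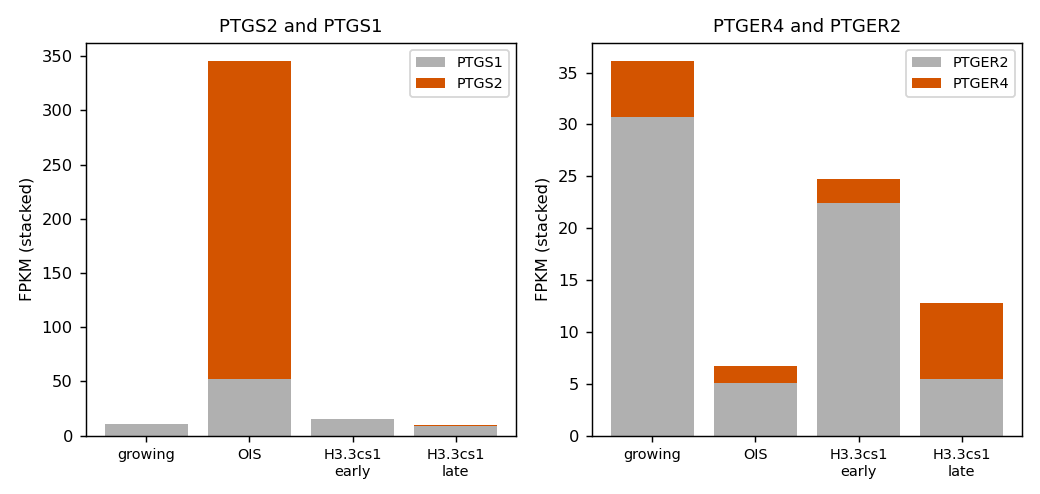
Stacked FPKM (linear axis from 0) of PTGS1 with PTGS2 and of PTGER2 with PTGER4 in each library. The cyclooxygenase bar is tallest in OIS, where PTGS2 makes up 84.7% of it, while the receptor bar is tallest in growing (36.1 FPKM) and PTGER4 makes up 57.1% of it in H3.3cs1 late.

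Among the terminal synthases, PTGES rose in OIS, PTGDS rose in H3.3cs1 early, and PTGIS stayed under 1 FPKM. PTGES encodes microsomal prostaglandin E synthase 1, the inducible enzyme that works with COX-2. It was at 0.991 FPKM in growing cells, 16.4 in OIS cells, 1.76 at H3.3cs1 day 3 and 0.810 at day 13, so OIS stood far above 3 libraries that lay close to 1 FPKM. The rise in OIS was 8.72-fold, with log2 differences of 0.47 in early and -0.14 in late. PTGES2 and PTGES3, which encode the other known prostaglandin E synthases, did not reach 2-fold in any of the 5 comparisons. PTGES2 was at 27.7 FPKM in growing cells, 28.7 in OIS cells, 26.01 at H3.3cs1 day 3 and 28.1 at day 13. PTGES thus gave 3.45% of the sum of PTGES and PTGES2 alone in growing and 36.3% in OIS. PTGES3, which that sum leaves out, was higher than either in every library. It was at 136 FPKM in growing cells, 139 in OIS cells, 130 at H3.3cs1 day 3 and 83.3 at day 13, so the share of PTGES among all 3 genes is smaller.

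PTGDS, which encodes the lipocalin-type prostaglandin D synthase, was at 0.783 FPKM in growing cells, 2.51 in OIS cells, 5.21 at H3.3cs1 day 3 and 1.82 at day 13. The early library was highest and growing lowest. PTGDS rose 3.48-fold in H3.3cs1 early, rank 37 among the rises of all genes, in a comparison where 1.40% of genes rose and 3.96% fell. It then fell 2.20-fold from day 3 to day 13. In OIS its difference was 0.98, just short of 2-fold, and it passed that size with a pseudocount of 0.1 FPKM (1.57) and after quantile normalization (1.05). In H3.3cs1 late it was 0.66, and 1.12 with that pseudocount. KRT19, the one of 8 epithelial markers above 1 FPKM, was also highest in H3.3cs1 early, at 10.9 FPKM against 2.33 in growing, while EPCAM was at 0.495 FPKM or less and NKX2-1 was listed at 0 in all 4. The summed level of the epithelial list was 2.59 FPKM in growing cells, 0.333 in OIS cells, 11.4 at H3.3cs1 day 3 and 3.55 at day 13, and its part in the PTGDS result was not tested.

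PTGIS, the prostacyclin synthase gene, was at 0.0206 FPKM in growing cells, 0.0379 in OIS cells, 0.146 at H3.3cs1 day 3 and 0.576 at day 13. The order put late highest, with a plain ratio to growing of 28.0, against 7.07 for early. On the log2(FPKM + 1) scale, which shrinks changes of such low values, the difference of late from growing was 0.63. How many fragments stand behind each value is not given, so these ratios are a description. HPGD, the main prostaglandin-inactivating enzyme, was listed at 0 in every library. So were 4948 of the 22679 named genes. A listed 0 can be a failed estimate, so it is not read as absence.

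**Figure D3:**
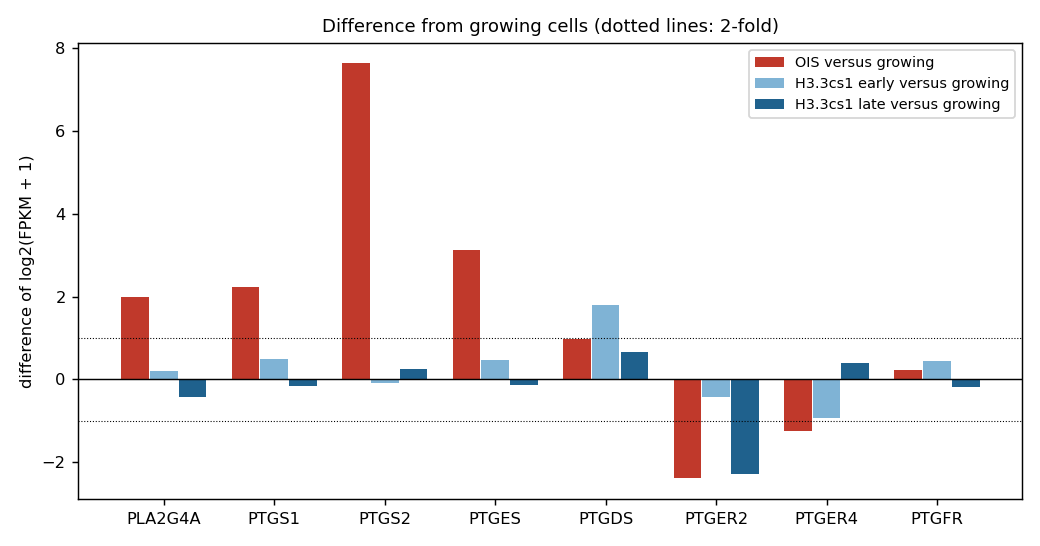
Difference of log2(FPKM + 1) from the growing library for the 8 genes with at least 1 FPKM in at least 1 library, with bars for OIS, H3.3cs1 early and H3.3cs1 late and dotted lines at 2-fold. PLA2G4A, PTGS1, PTGS2 and PTGES pass the upper line in OIS alone, while PTGER2 passes the lower line in OIS and in H3.3cs1 late.

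Of the receptor genes, PTGER2 fell in OIS and in H3.3cs1 late but not in H3.3cs1 early. PTGER4 fell in OIS, and PTGFR did not pass 2-fold against growing in any library. PTGER2, the gene of the EP2 receptor, was at 30.7 FPKM in growing cells, 5.07 in OIS cells, 22.4 at H3.3cs1 day 3 and 5.49 at day 13. Growing and early were high, and OIS and late were low and within 1.08 times of each other. The fall was 5.23-fold in OIS and 4.89-fold in H3.3cs1 late. Among falls these were rank 196 in OIS and rank 148 in late. Of all genes 5.47% fell in H3.3cs1 late and 3.51% rose, and PTGER2 was the 1 gene of the 8 that passed 2-fold there. From H3.3cs1 early to late it fell 3.61-fold, rank 66 among the falls of a comparison in which 3.40% of genes fell. OIS and late share the growing library as their control, so their falls are not independent of each other.

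PTGER4, the gene of the EP4 receptor, was at 5.34 FPKM in growing cells, 1.68 in OIS cells, 2.30 at H3.3cs1 day 3 and 7.30 at day 13. OIS and early were the low libraries and late was the highest. It fell 2.36-fold in OIS. In H3.3cs1 early its difference was -0.94, short of 2-fold, and with a pseudocount of 0.1 FPKM it was -1.18. From early to late it rose 2.51-fold, where 5.47% of all genes rose, while PTGER2 fell. Set against OIS directly, H3.3cs1 late had 3.09-fold more PTGER4 and nearly the same PTGER2 (log2 difference of OIS from late -0.10).

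The share of PTGER4 in the summed FPKM of both prostaglandin E2 receptor genes of the set was 14.8% in growing cells, 24.9% in OIS cells, 9.31% at H3.3cs1 day 3 and 57.1% at day 13. Outside the set, the prostaglandin E2 receptor genes PTGER1 and PTGER3 were below 1 FPKM in every library, both highest in OIS (0.885 and 0.110 FPKM). PTGER2 was the higher gene in growing, OIS and early, and PTGER4 in late. The sum was 36.1 FPKM in growing cells, 6.75 in OIS cells, 24.7 at H3.3cs1 day 3 and 12.8 at day 13, so OIS had the lowest sum beside the highest PTGS2 and PTGES.

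PTGFR, which encodes the FP receptor of prostaglandin F2 alpha, was at 2.19 FPKM in growing cells, 2.70 in OIS cells, 3.301 at H3.3cs1 day 3 and 1.80 at day 13. These values span less than 2-fold, and PTGFR was the 1 compared gene of the set that passed 2-fold in none of the 5 comparisons.

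Set directly against each other, OIS was higher than H3.3cs1 late for PTGS2 (166-fold), PTGES (9.59-fold), PLA2G4A (5.31-fold) and PTGS1 (5.24-fold), and lower for PTGER4. In that comparison 11.2% of all genes were higher and 8.51% lower in OIS. PTGS1, PTGES, PLA2G4A and PTGFR had differences between -0.61 and -0.65 from H3.3cs1 early to late, none of them 2-fold.

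By pattern over the 3 differences from growing, the genes closest to PTGS2 were TNFSF15 (Euclidean distance 0.29), a TNF family cytokine, CXCL3 (0.51) and CCL20 (0.52), which are chemokines, and BMP2 (0.56), a bone morphogenetic protein. They were sought among 11419 single-gene loci above 0 in all 4 libraries. CXCL3 was at 0.252 FPKM in growing cells, 341 in OIS cells, 0.294 at H3.3cs1 day 3 and 0.325 at day 13, so it too was high in OIS alone. Closest to PTGES were SOD2 (0.25), the mitochondrial superoxide dismutase, AKR1B1 (0.26), RGS2 (0.26), a regulator of G protein signalling, and PMEL (0.29), a melanosome protein. Within the set itself, PLA2G4A and PTGS1 were the closest pair (0.47). A distance over 4 libraries describes these libraries and no more.

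In the rest of the prostanoid pathway (21 genes, 13 of them compared), 4 genes were higher in OIS, 1 was lower and 8 were neither, where 9.13% and 8.17% of all genes were higher and lower. The median was 0.36 against 0.03 over all genes. AKR1B1, aldose reductase, which can also make prostaglandin F2 alpha, was at 76.9 FPKM in growing cells, 617 in OIS cells, 124 at H3.3cs1 day 3 and 67.0 at day 13. That is a 7.93-fold rise in OIS. PTGIR, the prostacyclin receptor gene, was at 1.62 FPKM in growing cells, 15.4 in OIS cells, 3.296 at H3.3cs1 day 3 and 2.42 at day 13, and rose 6.25-fold in OIS. TBXAS1, thromboxane synthase, was at 6.21 FPKM in growing cells, 24.3 in OIS cells, 2.73 at H3.3cs1 day 3 and 4.27 at day 13, and rose 3.51-fold in OIS. OIS was the highest library for all of these genes.

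ABCC4, a transporter that exports prostaglandin E2, was at 16.8 FPKM in growing cells, 39.7 in OIS cells, 18.3 at H3.3cs1 day 3 and 16.5 at day 13. It rose 2.29-fold in OIS, which became 0.96 on the log2 scale, short of 2-fold, after rescaling named genes to the same sum. SLCO2A1, the prostaglandin importer, was at 0.442 FPKM or less in every library. PPARG, a nuclear receptor that binds prostaglandin D2 derivatives, was at 9.26 FPKM in growing cells, 2.01 in OIS cells, 11.2 at H3.3cs1 day 3 and 3.97 at day 13. It fell 3.41-fold in OIS and 2.06-fold in H3.3cs1 late, and the latter was -0.93 after quantile normalization, short of 2-fold. CBR3, a carbonyl reductase, was at 13.1 FPKM in growing cells, 6.75 in OIS cells, 8.50 at H3.3cs1 day 3 and 4.27 at day 13, and fell 2.67-fold in late. In H3.3cs1 late 0 of the 13 genes rose and 2 fell, where 3.51% of all genes rose and 5.47% fell. In H3.3cs1 early 0 rose and 0 fell, where 1.40% of all genes rose and 3.96% fell. With so few genes, counts of 0 beside such shares are not read as a result about the list. With a pseudocount of 0.1 FPKM, TBXAS1 was past 2-fold lower in early (-1.16).

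**Figure D4:**
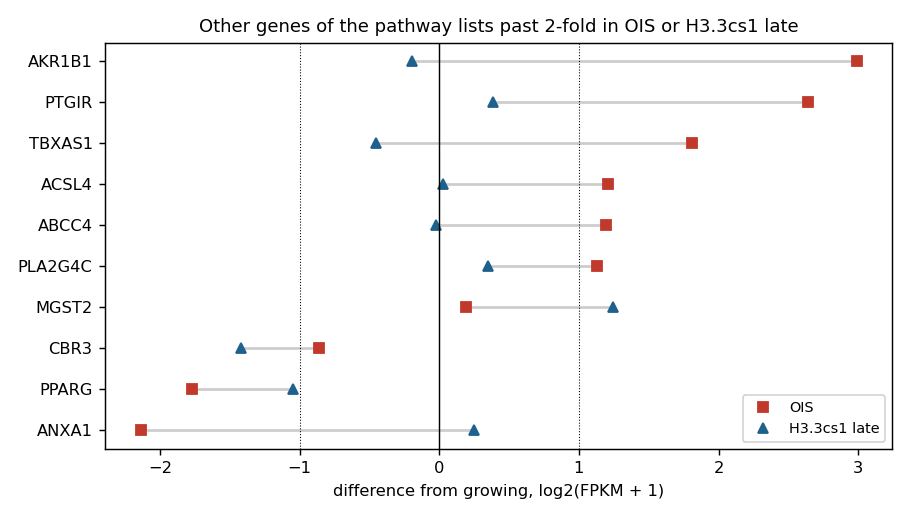
Difference of log2(FPKM + 1) from growing in OIS (squares) and H3.3cs1 late (triangles) for the 10 genes of the other pathway lists that passed 2-fold (dotted lines) in either. AKR1B1 lies furthest right in OIS (2.99) and ANXA1 furthest left (-2.13), while both lie within 2-fold of growing in H3.3cs1 late.

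Of 19 other genes of arachidonate release and handling, 13 were compared and 2 rose and 1 fell in OIS (median -0.09), near the shares of all genes, 9.13% and 8.17%. ACSL4, which couples arachidonic acid to coenzyme A, was at 28.7 FPKM in growing cells, 67.6 in OIS cells, 28.4 at H3.3cs1 day 3 and 29.3 at day 13, and rose 2.31-fold. PLA2G4C, another cytosolic phospholipase A2 gene, was at 2.19 FPKM in growing cells, 5.99 in OIS cells, 2.82 at H3.3cs1 day 3 and 3.07 at day 13, and rose 2.19-fold. Neither reached 2-fold after rescaling to the same sum (0.98 for ACSL4 and 0.93 for PLA2G4C). ANXA1, whose product annexin A1 is known as an inhibitor of phospholipase A2, was at 322 FPKM in growing cells, 72.5 in OIS cells, 264 at H3.3cs1 day 3 and 383 at day 13. The OIS library was thus the low one, with a fall of 4.39-fold. In H3.3cs1 late 0 of these 13 genes passed 2-fold in either direction, where 3.51% of all genes rose and 5.47% fell. DAGLB, a diacylglycerol lipase gene, lay at the limit, with 16.0 FPKM in growing and 32.9 in late. Its log2 difference was 0.9955, and it passed 2-fold with a pseudocount of 0.1 FPKM (1.04), with named genes rescaled to the same sum (1.004), with centred differences (1.04) and after quantile normalization (1.01).

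The lipoxygenase and leukotriene branch, which uses the same arachidonic acid, had 7 of 16 loci compared. In OIS, where 9.13% of all genes rose and 8.17% fell, 0 of them passed 2-fold (median 0.34). With a pseudocount of 0.1 FPKM 2 did, and after quantile normalization 1 did. ALOX5AP, the 5-lipoxygenase activating protein gene, was at 0.0406 FPKM in growing cells and 1.001 in OIS cells, with a log2 difference of 0.94 that became 2.97 and 1.005 under those settings. ALOX5, the 5-lipoxygenase gene, was listed at 0 in every library. MGST2, a microsomal glutathione transferase that can make leukotriene C4, was at 3.31 FPKM in growing cells, 3.94 in OIS cells, 4.87 at H3.3cs1 day 3 and 9.21 at day 13. It rose 2.37-fold in late. ALOX5AP, which reached 1 FPKM in OIS alone, was at 0.371 FPKM in late, with a log2 difference of 0.40 from growing. With a pseudocount of 0.1 FPKM that difference was 1.74, but it lies between values well below 1 FPKM.

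Of 8 endothelial markers, 4 were at 1 FPKM or more in OIS, with a summed level of 22.1 FPKM against 3.09 in growing cells, 2.41 at H3.3cs1 day 3 and 1.33 at day 13. CLDN5, at 11.6 FPKM, gave most of it, while PECAM1 was at 0.115 FPKM and CDH5 and KDR were listed at 0 in OIS. The summed leukocyte list, nearly all of it from the CD68 locus, was 89.8 FPKM in OIS, 56.6 in growing, 52.5 in early and 39.6 in late. The part of either list in the OIS differences was not tested. In bulk RNA, fewer cells of a type and less RNA per cell cannot be told apart.

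Depth is not given in counts. From the commonest ratio of values below 0.1 FPKM it was roughly 82.9% of the growing library for OIS, 95.9% for H3.3cs1 day 3 and 77.7% for day 13. The split of all genes between rises and falls depended on scaling. Of the genes past 2-fold, 52.8% were higher in OIS, 26.1% in H3.3cs1 early and 61.7% from early to late. After rescaling named genes to the same sum these were 37.7%, 48.3% and 36.4%, and for OIS against H3.3cs1 late 56.8% became 41.3%. That rescaling moved the median of all genes to -0.16 in OIS, 0.19 in H3.3cs1 early, -0.26 from early to late and -0.12 in OIS against late, from main values between -0.04 and 0.09. None of the calls for the 8 genes was lost under it.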

How the data were processed

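Poly(A) RNA of 4 IMR90 cultures, 1 per group, was sequenced after library preparation with a TruSeq RNA v2 kit, per the labels' protocols. The authors deposited FPKM per locus. TopHat2 2.0.3, Bowtie2, Cufflinks 2.1.1 and hg19 are named in the submitters' processing notes. For read counts, strand and multi-mapping the sources used here say nothing. The header of each file names other libraries than its own, so libraries were taken from the sample records. Of 26468 loci, 2310 had no name and were left out (47.4% to 57.9% of the summed FPKM). A symbol on several lines (540 symbols) got their sum, and joined loci kept their joined names.

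Differences of log2(FPKM + 1) were computed with Python 3.11.15 and pandas 2.3.3 over 12183 genes at 1 FPKM or more in 1 library, and called at 2-fold. Named were the 10 genes, genes of 3 other pathway lists past 2-fold in OIS or H3.3cs1 late, the 4 genes closest to the 2 members furthest from growing, markers and HRAS. Other names (such as PTGES2, SLCO2A1, DAGLB and ALOX5AP) were chosen after their values were seen. Alternatives (9) varied the pseudocount, filter, scaling, multiple lines, joined loci and zeros. Members and lists were chosen with earlier results of these data known.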

Additional observations from a re-analysis of the deposited data

Results flagged for a closer look

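In 5 of the 8 genes compared, OIS and H3.3cs1 late lay on opposite sides of growing, which they share as control. So did 45.9% of the 12183 genes compared, and the late differences of PTGS1, PTGES and PTGFR are small, so the count is not read as a result about the set. With 1 library each, the difference between the 2 effects was not tested. PTGES differed from growing by 3.12 in OIS and -0.14 in H3.3cs1 late on the log2 scale. The differences of PTGS1 were 2.23 and -0.16, and those of PLA2G4A 1.98 and -0.43. PTGER4 had -1.24 in OIS and 0.39 in H3.3cs1 late. For PTGFR the differences were 0.21 and -0.19, both within 2-fold.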

How the results depend on the processing

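Over 9 alternatives and 5 comparisons, 348 of 355 differences of the compared genes kept their side of 2-fold and 7 came to pass it. Of the differences past 2-fold, 0 lost it or changed direction, and the direction of smaller ones was not followed. Much of this was fixed in advance. The settings for filter, multiple lines, joined loci and zeros could not move a compared gene with 1 unjoined locus above 0 in every library. Only the pseudocount and the scaling could, and the 7 came with the pseudocount of 0.1 FPKM or quantile normalization. With a pseudocount of 0.1 FPKM, 1 member was higher and 2 lower in H3.3cs1 late (PTGDS at 1.12, PLA2G4A at -1.17), 1 was lower in H3.3cs1 early (PTGER4), and 4 were lower from early to late, where PLA2G4A (-1.58) and PTGES (-1.03) joined. That pseudocount also moved counts over all genes, to 1523 lower in OIS (from 995), 743 higher in late (from 428), 437 higher in early (from 171) and 910 lower from early to late (from 414). After rescaling to the same sum, 316 genes were higher in early and 808 lower from early to late. The share of called genes that were higher was 38.5% in early and 50.6% from early to late with that pseudocount. Differences between values below 1 FPKM depend on the pseudocount, and the fragments behind them are not given, which limits PTGIS and PLA2G4A. No paired analysis was possible because each group has 1 library.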
